A study of Mus musculus with 16 samples.

Results

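The 10 genes described here encode the cytokine TNF and 9 parts of the NF-κB system in mouse: the subunit genes *Nfkb1*, *Nfkb2*, *Rela* and *Relb*, the inhibitor genes *Nfkbia* and *Nfkbie*, the nuclear IκB-type regulator genes *Nfkbiz* and *Bcl3*, and *Tnfaip3*. They were taken as a list of gene symbols, each of which matched 1 of the 55487 gene identifiers in the deposited table. The question of the study was how time of day (TOD) alters the brain's response to a systemic inflammatory stimulus. Cortex RNA was sequenced from 16 male wild-type C57Bl6 mice aged 2 months, which had been injected i.p. with bacterial lipopolysaccharide (LPS, 2 mg/kg) or with PBS on 2 consecutive days and were harvested on the day after the second. Injections were given at zeitgeber time 1 (ZT1, early in the light phase) or at ZT13 (early in the dark phase), 3 mice with PBS and 5 with LPS in either case. All values are read counts scaled so that each library sums to 1000000 (CPM).

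In resting cells NF-κB dimers are held in the cytoplasm by IκB proteins. Engagement of a TNF receptor or of Toll-like receptor 4, the LPS receptor, activates the IκB kinase (IKK) complex, IκB is degraded, and the freed dimers enter the nucleus and switch on genes with κB sites. Those genes include the inhibitors themselves, so that IκBα, encoded by *Nfkbia*, and the ubiquitin-editing enzyme A20, encoded by *Tnfaip3*, close a negative feedback loop on the pathway, and the *Nfkb2* and *Relb* genes feed the slower non-canonical branch. In the brain microglia, perivascular cells and the endothelium respond to systemic LPS, and blood leukocytes can add to the response.

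The promoters of the feedback genes are where the loop closes, and 3 promoters are printed, each wholly outside annotated exons and carrying the κB-type letters. The promoter at the second *Tnfaip3* start also has these traits and is not printed. The windows are the 250 bases before a RefSeq transcription start in GRCm38.p6, on the strand of the gene. Capitals mark matches on either strand to the NF-κB consensus or to the looser letters GGNNNTTCC, and the remaining bases are in lower case. The first is the inhibitor *Nfkbia*, at chr12:55492648-55492897 on the reverse strand, the second is *Nfkbie*, at chr17:45555450-45555699 on the forward strand, and the third is *Tnf*, at chr17:35202008-35202257 on the reverse strand.
Nfkbia: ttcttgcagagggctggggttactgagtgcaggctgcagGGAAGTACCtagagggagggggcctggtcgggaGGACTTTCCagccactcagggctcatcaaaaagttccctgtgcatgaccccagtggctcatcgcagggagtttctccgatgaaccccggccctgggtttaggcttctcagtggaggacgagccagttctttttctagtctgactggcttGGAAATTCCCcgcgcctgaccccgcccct
Nfkbie: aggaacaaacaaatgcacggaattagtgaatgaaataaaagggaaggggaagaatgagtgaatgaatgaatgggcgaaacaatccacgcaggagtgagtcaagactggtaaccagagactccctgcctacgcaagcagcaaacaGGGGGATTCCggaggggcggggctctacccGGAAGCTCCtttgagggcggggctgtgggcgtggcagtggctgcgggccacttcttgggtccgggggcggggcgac
Tnf: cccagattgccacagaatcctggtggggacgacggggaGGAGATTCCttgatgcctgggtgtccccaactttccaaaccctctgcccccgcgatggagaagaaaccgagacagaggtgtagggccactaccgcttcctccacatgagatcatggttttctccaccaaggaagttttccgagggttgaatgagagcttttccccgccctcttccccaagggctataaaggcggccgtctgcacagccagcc

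The *Nfkbia* window held 1 consensus match, GGAAATTCCC, whose first base lay at position -29 from the start, and 3 matches to the looser letters. The *Nfkbie* window held 1 consensus match and 2 looser ones, and the *Tnf* window held 0 consensus matches and 1 looser one, GGAGATTCC at -212. In the window before the first *Nfkb2* start the consensus matched at -39 (GGGAATTCCC), -38 (GGAATTCCCC) and -11 (GGGGCTTTCC), the first 2 of which overlap. Before the first *Tnfaip3* start it matched at -125 (GGGACACCCC) and -12 (GGAAATCCCC). *Bcl3* had 1 looser match and *Rela* had none of either kind in this window. RefSeq windows were matched for 7 of the 10 genes, and those of *Nfkb1*, *Relb* and *Nfkbiz* were not used here. The consensus matched in 4 of the 7 genes, counting every start listed, and either motif matched in 6. Among all 32851 promoter windows of the same length, 7.25% held the consensus, 15.7% held the looser letters and 3.87% held both, since a consensus match often contains the looser letters. These shares are per window, whereas the counts above are per gene, and *Nfkb2* and *Tnfaip3* had more than 1 window each. These matches describe sequence only. No binding was measured.

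The libraries held 20251840 to 29112758 reads on genes, as read from the spacing of their lowest values. Groups follow the sample titles, since the treatment field of 12 of the 16 samples names the other treatment. As a check of the titles, *Gfap*, which reactive astrocytes raise, read 111 to 123 CPM under PBS titles and 572 to 1134 CPM under LPS titles. As a check of the tissue, 8 neuronal markers summed to between 7474 and 8302 CPM in every sample. The comparisons covered 18859 genes, those that reached 1 CPM in 3 or more samples. Their log2(CPM + 0.5) values were fitted with limma, a linear model that shares variance across genes, and a gene was called at a Benjamini-Hochberg adjusted p under 0.05. Fold changes are therefore on that scale, which understates the change of genes below about 1 CPM. All 10 genes passed the filter. *Tnf* passed with 3 samples at 1 CPM or more, all of them ZT13 LPS, and *Bcl3* with 10, all of them LPS, so for these 2 genes the filter itself depended on the groups in which they were high.

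Most of the 10 genes were higher after LPS at both times. At ZT1, 8 of the 10 were higher after LPS at an adjusted p under 0.05, where 16.2% of all genes tested were called in either direction and 11.1% were called higher. At ZT13 all 10 were higher, where 28.6% of all genes were called and 19.2% were called higher. Among the 8 genes that also reached 1 CPM in at least 3 PBS samples, 7 were called at ZT1 and 8 at ZT13. The median log2 fold change of the 10 genes was 0.57 at ZT1 and 0.95 at ZT13, beside 0.04 and 0.05 over all genes tested, and that of the 8 genes was 0.51 and 0.91. The LPS-treated and PBS-treated mice did not overlap for 9 of the genes at ZT1 and for 10 at ZT13, and 15.9% and 20.9% of all genes had every LPS sample above every PBS sample at those times. These are tissue levels, in which fewer or more cells of a type and less or more RNA per cell cannot be told apart.

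**Figure D1:**
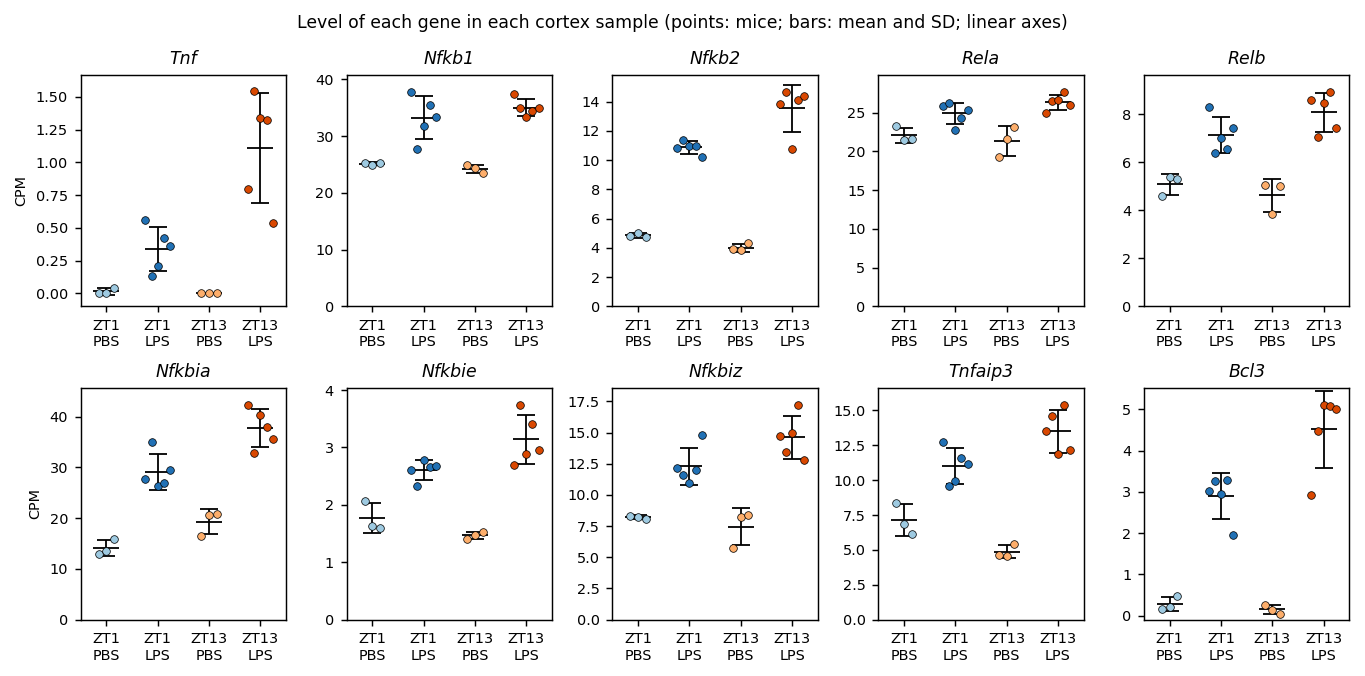
Level of each of the 10 genes (CPM, linear vertical axes) in each of the 16 cortex samples, by group. Points are mice and bars give the mean and SD of 3 PBS-treated or 5 LPS-treated mice. At ZT13 every LPS point lies above every PBS point in all 10 panels, and at ZT1 the *Rela* groups overlap.

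*Tnf* (ENSMUSG00000024401, chromosome 17 of GRCm38 from 35199381 to 35202007, reverse strand) encodes the cytokine that both triggers the pathway and is made in response to it. No read of it was listed in 5 of the 6 PBS-treated mice, and it stood at 0.0421 CPM, which is 1 read, in ZT1 PBS replicate 3. After LPS at ZT1 it was at 0.56, 0.13, 0.21, 0.42 and 0.36 CPM in replicates 1 to 5, or 12, 3, 6, 12 and 8 reads. After LPS at ZT13 it was at 0.80, 1.55, 1.34, 1.33 and 0.54 CPM, or 18, 36, 32, 35 and 12 reads. The transcript was thus read in every LPS-treated mouse and at most once in a PBS-treated one, and 4 of the 5 ZT13 LPS mice were above all ZT1 LPS mice. Because both PBS groups were at or under 3 reads, the increases are lower bounds against 3 reads in the shallowest PBS library of each time. By the mean of the LPS-treated mice they were at least 2.27-fold (ZT1) and at least 7.999-fold (ZT13). These bounds allow for counting error in the PBS groups only, not for that in the LPS groups or for the spread between mice. ZT1 LPS replicate 2 itself had 3 reads. On the log2(CPM + 0.5) scale *Tnf* differed from PBS by 0.68 (standard error, SE, 0.22, adjusted p = 0.056 by limma) at ZT1 and 1.64 (SE 0.23, adjusted p = 1.0e-04 by limma) at ZT13. *Tnf* passed the filter through ZT13 LPS samples alone, so the ZT13 p-value depends on the group in which it was high. The ZT1 difference passed the threshold without ZT1 LPS replicate 2, the mouse with the fewest *Tnf* reads (0.77, limma adjusted p = 0.032), and the 9 alternative settings that kept all mice gave adjusted p from 0.024 to 0.61.

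The summed neutrophil markers, like *Tnf*, were higher in every LPS-treated mouse than in any PBS-treated one. The 10 neutrophil markers summed to 0.97 to 2.36 CPM in the 6 PBS-treated mice, to 15.7 to 67.5 CPM in ZT1 LPS (median 29.4) and to 48.3 to 120 CPM in ZT13 LPS (median 85.8). Of these markers, 7 could be tested, and 6 were called higher after LPS at ZT1 and 7 at ZT13, beside 11.1% and 19.2% of all genes. *Cxcr2*, *Mmp8*, *Retnlg* and *S100a8* were below 1 CPM in every PBS-treated mouse. They passed the filter through LPS samples alone, so their calls depend on the groups in which they were high. Among single markers, *Cxcr2* was at 0 in every PBS-treated mouse and at 0.67 to 13.4 CPM in LPS-treated mice, whereas *Ly6g* was at 0 in every PBS-treated mouse and at no more than 0.15 CPM in any LPS-treated one. Replicate 2 of the ZT1 LPS group and replicate 5 of the ZT13 LPS group, which had the least *Tnf* of their groups, also had the lowest neutrophil sums of their groups, although at ZT1 replicate 2 (15.7 CPM) and replicate 5 (15.8 CPM) were nearly level. The order of the other mice matched only in part. In ZT13 LPS, replicate 2 had more *Tnf* than replicate 1 (1.55 against 0.80 CPM) but a lower neutrophil sum (71.5 against 85.8 CPM). In ZT1 LPS, replicate 5 had more *Tnf* than replicate 3 (0.36 against 0.21 CPM) but a lower neutrophil sum (15.8 against 29.4 CPM). ZT1 LPS replicate 2 was also the lowest of its group in the microglia (204 CPM), perivascular macrophage (11.3 CPM), monocyte (124 CPM), endothelial (240 CPM) and astrocyte sums, and its erythrocyte marker sum, 35.8 CPM, was the highest of the 16. Without it limma called 9 of the 10 genes at ZT1, 1 between the LPS groups and 0 for the interaction. Between the LPS groups that fit called 20 of all genes tested. The 10 microglia markers summed to 198 to 223 CPM in PBS-treated mice, to 204 to 343 CPM in ZT1 LPS and to 241 to 289 CPM in ZT13 LPS, so their ranges in the LPS groups overlapped. Among the microglia markers 5 were called higher and 2 lower at ZT1, and 5 higher and 4 lower at ZT13. Over all genes tested, 11.1% were called higher and 5.15% lower at ZT1, and 19.2% and 9.4% at ZT13. The perivascular macrophage markers summed to 8.46 to 11.9 CPM in PBS-treated mice, 11.3 to 25.3 CPM in ZT1 LPS and 26.6 to 30.1 CPM in ZT13 LPS, and the monocyte markers to 113 to 138, 124 to 218 and 180 to 209 CPM. Most of the monocyte sum was *Fn1* (83.3 to 175 CPM) and *Vcan* (25.7 to 39.9 CPM), while *Ccr2* did not exceed 2.36 CPM. The 9 lymphocyte markers did not exceed a summed 2.46 CPM in any sample. The part of these cells in the *Tnf* level was not tested.

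**Figure D2:**
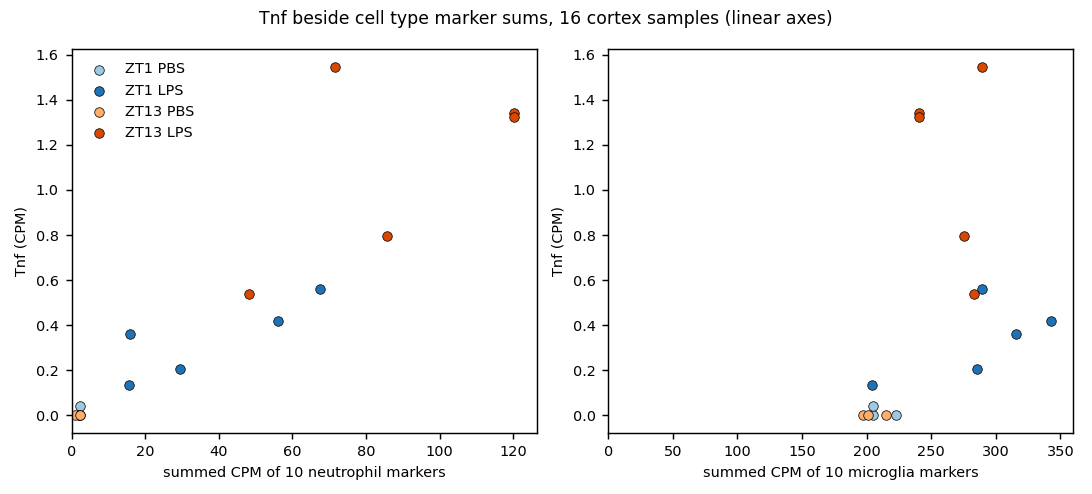
*Tnf* (CPM, vertical axes) against the summed CPM of 10 neutrophil markers (left) and of 10 microglia markers (right) in the 16 samples, colored by group, with linear axes. ZT13 LPS mice reach 48.3 to 120 CPM of neutrophil markers, and ZT1 LPS mice 15.7 to 67.5 CPM, whereas the microglia sums of the LPS groups lie over one another.

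The cytoplasmic inhibitors and A20 form the feedback arm of the list. *Nfkbia* (ENSMUSG00000021025, chromosome 12 from 55489410 to 55492647, reverse strand), which encodes IκBα, was at 12.9, 13.5 and 15.8 CPM in ZT1 PBS and at 27.8, 35.0, 26.3, 26.9 and 29.5 CPM in ZT1 LPS. At ZT13 it was at 16.4, 20.7 and 20.8 CPM in PBS and at 42.3, 32.7, 40.3, 38.0 and 35.6 CPM in LPS. The LPS groups lay clear of the PBS groups at both times, and the means were higher at ZT13 under both treatments, by differences that did not pass the adjusted threshold. It rose 2.07-fold by mean CPM at ZT1, with a fitted log2 difference of 1.02 (SE 0.10, adjusted p = 4.9e-05 by limma), and 1.96-fold at ZT13, with a fitted log2 difference of 0.95 (SE 0.09, adjusted p = 2.9e-06 by limma).

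Unlike *Nfkbia*, *Tnfaip3* (ENSMUSG00000019850, chromosome 10 from 19000910 to 19015657, reverse strand), which encodes A20, had a lower mean at ZT13 than at ZT1 in PBS-treated mice. It was at 8.38, 6.86 and 6.15 CPM in ZT1 PBS and at 4.63, 4.58 and 5.42 CPM in ZT13 PBS. After LPS it was at 12.7, 9.58, 9.96, 11.6 and 11.1 CPM at ZT1 and at 13.5, 14.6, 11.9, 15.4 and 12.1 CPM at ZT13. The PBS mice were lower at ZT13 with no overlap, as for 9.21% of all genes, and the difference was not called (limma adjusted p = 0.16). The LPS ranges at the 2 times overlapped. The rise was 1.54-fold by mean CPM at ZT1 (0.60 on the log2 scale, SE 0.12, adjusted p = 0.0057 by limma) and 2.77-fold at ZT13 (1.38 on the log2 scale, SE 0.10, adjusted p = 2.4e-07 by limma).

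*Nfkbie* (ENSMUSG00000023947, chromosome 17 from 45555703 to 45563169, forward strand) encodes IκBε, another cytoplasmic inhibitor. It was at 1.60 to 2.07 CPM in ZT1 PBS, 2.33 to 2.78 CPM in ZT1 LPS, 1.40 to 1.52 CPM in ZT13 PBS and 2.70 to 3.74 CPM in ZT13 LPS. It rose at both times, by 0.46 on the log2 scale at ZT1 (SE 0.13, adjusted p = 0.031 by limma) and by 0.88 at ZT13 (SE 0.13, adjusted p = 2.0e-04 by limma). The ZT1 call depended on single mice, since leaving out PBS replicate 2 or 3 or LPS replicate 1, 3 or 4 took the limma adjusted p to between 0.053 and 0.12.

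On the log2(CPM + 0.5) scale, which understates low genes such as *Tnf*, the largest fold changes of the 10 belonged to a nuclear regulator. *Bcl3* (ENSMUSG00000053175, chromosome 7 from 19808462 to 19822770, reverse strand) encodes a nuclear IκB-type protein that pairs with p50 and p52 dimers. It was at 0.15, 0.20 and 0.46 CPM in ZT1 PBS and at 0.27, 0.14 and 0.045 CPM in ZT13 PBS. After LPS it was at 3.03, 3.27, 2.95, 3.29 and 1.95 CPM at ZT1 and at 2.92, 4.47, 5.12, 5.08 and 5.02 CPM at ZT13. The lowest LPS value, 1.95 CPM, lay well above the highest PBS value, 0.46 CPM. The log2 difference was 2.15 at ZT1 (SE 0.19, adjusted p = 3.0e-05 by limma) and 2.94 at ZT13 (SE 0.19, adjusted p = 5.7e-08 by limma), and the ratios of mean CPM, 10.8 and 30.2, are larger because the pseudocount exceeds the PBS level. *Bcl3* passed the filter through LPS samples alone, so these p-values depend on the groups in which it was high.

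*Nfkbiz* (ENSMUSG00000035356, chromosome 16 from 55811375 to 55838899, reverse strand) encodes IκBζ, a nuclear co-regulator of secondary response genes. It was at 8.33, 8.25 and 8.04 CPM in ZT1 PBS, 12.1, 11.6, 11.0, 12.01 and 14.8 CPM in ZT1 LPS, 5.77, 8.23 and 8.38 CPM in ZT13 PBS and 14.7, 13.5, 14.9, 17.2 and 12.8 CPM in ZT13 LPS. The rise was 0.55 on the log2 scale at ZT1 (SE 0.10, adjusted p = 0.0029 by limma) and 0.94 at ZT13 (SE 0.12, adjusted p = 5.3e-05 by limma). A single ZT13 PBS mouse, replicate 1, lay below the other PBS mice.

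Among the subunits *Nfkb2* had the largest log2 fold changes at both times and *Rela* the smallest. *Nfkb2* (ENSMUSG00000025225, chromosome 19 from 46304320 to 46312385, forward strand) encodes p100, the precursor of p52. It was at 4.83, 5.02 and 4.72 CPM in ZT1 PBS, 10.8, 11.4, 11.0, 10.9 and 10.2 CPM in ZT1 LPS, 3.90, 3.83 and 4.34 CPM in ZT13 PBS and 13.8, 14.7, 10.7, 14.1 and 14.4 CPM in ZT13 LPS. Its groups were narrow apart from ZT13 LPS replicate 3, and the rise was 1.09 on the log2 scale at ZT1 (SE 0.08, adjusted p = 6.1e-06 by limma) and 1.63 at ZT13 (SE 0.11, adjusted p = 6.3e-08 by limma). Exons of *Nfkb2* share 299 bases with *Psd* and 531 with AC114539.1 on the opposite strand, *Psd* is at 376 to 440 CPM here, and whether the counting used strand is not given in the sources used here. *Relb* (ENSMUSG00000002983, chromosome 7 from 19606217 to 19629438, reverse strand), which encodes the usual partner of p52, was at 4.59 to 5.38 CPM in ZT1 PBS, 6.40 to 8.30 CPM in ZT1 LPS, 3.84 to 5.05 CPM in ZT13 PBS and 7.05 to 8.94 CPM in ZT13 LPS. It rose by 0.45 at ZT1 (SE 0.11, adjusted p = 0.016 by limma, or 0.084 without PBS replicate 1) and by 0.75 at ZT13 (SE 0.11, adjusted p = 2.1e-04 by limma).

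*Nfkb1* (ENSMUSG00000028163, chromosome 3 from 135584655 to 135691547, reverse strand) encodes p105, the precursor of p50. It was at 24.9 to 25.3 CPM in ZT1 PBS, 27.8 to 37.8 CPM in ZT1 LPS, 23.4 to 24.9 CPM in ZT13 PBS and 33.4 to 37.5 CPM in ZT13 LPS, with a rise of 0.39 on the log2 scale at ZT1 (SE 0.09, adjusted p = 0.010 by limma) and of 0.52 at ZT13 (SE 0.05, adjusted p = 4.2e-06 by limma). *Rela* (ENSMUSG00000024927, chromosome 19 from 5637483 to 5648130, forward strand) encodes p65, the main activating subunit, and moved least. It was at 21.5 to 23.2 CPM in ZT1 PBS, 22.8 to 26.2 CPM in ZT1 LPS, 19.2 to 23.2 CPM in ZT13 PBS and 24.9 to 27.7 CPM in ZT13 LPS. Its log2 difference was 0.17 at ZT1 (95% confidence interval 0.03 to 0.31, limma adjusted p = 0.10) and 0.30 at ZT13 (95% confidence interval 0.16 to 0.44, limma adjusted p = 0.0030).

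**Figure D3:**
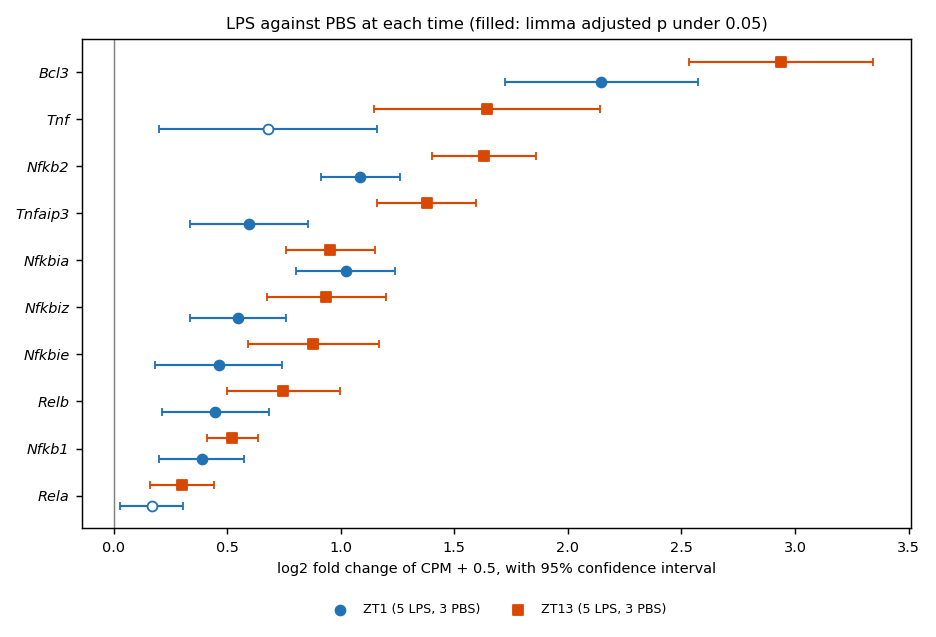
Log2 fold change of CPM + 0.5 (horizontal axis) after LPS against PBS at ZT1 (circles) and at ZT13 (squares) for each gene, with 95% confidence intervals from limma and filled symbols at an adjusted p under 0.05. *Tnf* and *Rela* are open at ZT1, and *Nfkbia* is the gene whose ZT13 value, 0.95, lies below its ZT1 value, 1.02.

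The balance between inhibitor and subunit transcripts can be read within each sample, where library scaling cancels. The mean log2 ratio of *Nfkbia* to *Rela* CPM was -0.66 ± 0.20 (SD, n = 3) in ZT1 PBS, 0.22 ± 0.12 (SD, n = 5) in ZT1 LPS, -0.15 ± 0.08 (SD, n = 3) in ZT13 PBS and 0.52 ± 0.17 (SD, n = 5) in ZT13 LPS. For *Tnfaip3* to *Rela* it was -1.64 ± 0.17, -1.18 ± 0.17, -2.13 ± 0.10 and -0.97 ± 0.15 in the same order. For *Nfkb2* to *Nfkb1* it was -2.37 ± 0.06, -1.60 ± 0.20, -2.59 ± 0.14 and -1.38 ± 0.16. In these 3 ratios all LPS-treated mice of a time were above all PBS-treated mice of that time. The other 2 ratios computed behaved differently. That of *Relb* to *Rela* was -2.12 ± 0.19, -1.81 ± 0.16, -2.21 ± 0.28 and -1.71 ± 0.15 in the same order, with overlap at ZT1. That of *Nfkbie* to *Nfkbia* was -3.00 ± 0.34, -3.47 ± 0.26, -3.71 ± 0.14 and -3.59 ± 0.32, so its mean was lower after LPS at ZT1 and higher at ZT13, and the groups overlapped at both times. The order of the 10 genes per kb of annotated exon began with *Nfkbia* and *Rela* in every group. That length joins the exons of all annotated transcripts of a gene, so the order depends on the annotation. By mean CPM alone *Nfkb1* was above *Rela* in ZT1 PBS (25.2 and 22.1 CPM). In ZT1 PBS, *Nfkbia* was at 8.73 ± 0.97 and *Rela* at 7.19 ± 0.32 CPM per kb (SD, n = 3), and in ZT13 LPS they were at 23.5 ± 2.33 and 8.57 ± 0.33 CPM per kb (SD, n = 5). *Nfkb2* ranked 6 of 10 in both PBS groups, at 1.06 ± 0.03 CPM per kb in ZT1 PBS, and 3 of 10 in ZT13 LPS at 2.96 ± 0.35 CPM per kb, where it could not be separated from *Nfkbiz* (2.91 ± 0.34) and *Nfkb1* (2.90 ± 0.12). In ZT13 LPS *Relb*, *Tnfaip3*, *Bcl3*, *Nfkbie* and *Tnf* followed from 2.08 to 0.68 CPM per kb, and each of these overlapped its neighbor in the order.

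Between the LPS-treated groups the 10 genes were all higher on average at ZT13 than at ZT1, and none reached the adjusted threshold, where 0.0212% of all genes did. An unadjusted limma p under 0.05 was met by 6 of the 10, against 10.6% of all genes, and the median log2 difference of the 10 was 0.26 beside 0.01 over all genes. *Tnf* and *Bcl3* count among the 6, and among the 8 genes that pass the filter in PBS samples it was met by 4, with a median of 0.23. Every one of the 10 had overlapping ranges in the 2 LPS groups, and 1.96% of all genes had ranges that did not overlap. *Tnf* differed most, with a ratio of mean CPM of 3.30 and a log2 difference of 0.92 (95% confidence interval 0.47 to 1.38, limma adjusted p = 0.12). As a single gene, unadjusted, *Tnf* differed in mean CPM with p = 0.016 by a two-sided exact permutation test, which cannot go below 0.0079 for 5 mice against 5. That test does not use the filter, but *Tnf* is a low gene that entered the fits through ZT13 LPS samples alone. *Nfkbia* differed by 0.37 (95% confidence interval 0.19 to 0.55, limma adjusted p = 0.11, two-sided exact permutation p = 0.016), and *Bcl3* by 0.56 (95% confidence interval 0.21 to 0.90, limma adjusted p = 0.21). *Nfkb2* and *Tnfaip3* differed by 0.30 and 0.28 (limma adjusted p = 0.19 and 0.27). *Nfkb1* and *Rela* had differences of 0.08 each, with upper bounds of 0.23 and 0.19. Leaving out ZT1 LPS replicate 1 brought *Tnf* past the threshold (1.02, limma adjusted p = 0.034), and leaving out ZT1 LPS replicate 2 did so for *Nfkbia* (0.44, limma adjusted p = 0.040). With sample quality weights both passed, at limma adjusted p = 0.029 and 0.021. Over all genes tested these fits called 345, 20 and 225 in turn, beside 4 in the main fit. *Tnf* was called in 2 of 9 alternative settings and 1 of 10 leave-one-out fits, and *Nfkbia* in 1 of 10 and 1 of 10. In the alternative settings their limma adjusted p reached 0.38 and 0.39.

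Between the PBS-treated groups, 0 of the 10 genes were called by limma, where 0.52% of all genes were called, and 2 had an unadjusted p under 0.05, where 13.5% of all genes did. These were *Nfkbia*, which stood 0.44 above ZT1 in log2 (95% confidence interval 0.19 to 0.69, limma adjusted p = 0.13), and *Tnfaip3*, at -0.50 (95% confidence interval -0.80 to -0.20, limma adjusted p = 0.16). The ratio of mean CPM of ZT13 to ZT1 PBS mice was 1.37 for *Nfkbia* and 0.684 for *Tnfaip3*. For both the groups did not overlap, nor did they for *Nfkb1*, *Nfkb2* and *Nfkbie*, which were lower at ZT13. Across all genes 9.52% were higher and 9.21% lower without overlap, and an exact permutation test of 3 mice against 3 cannot go below 0.10. The median log2 difference of the 10 genes was -0.14, and 9 of the 10 were negative.

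The TOD × treatment interaction, the LPS response at ZT13 minus that at ZT1 in a fit of all 16 samples, was positive for 9 of the 10 genes, and 0 passed the adjusted threshold in limma, where 0.159% of all genes did. An unadjusted p under 0.05 was met by 6 of the 10, against 9.25% of all genes, and the median was 0.40 beside 0.01. Among the 8 genes that pass the filter in PBS samples it was met by 4, with a median of 0.34. *Tnfaip3* came nearest, with an interaction of 0.78 (95% confidence interval 0.45 to 1.12, limma adjusted p = 0.068), made of -0.50 in PBS-treated and 0.28 in LPS-treated mice. For *Nfkb2* it was 0.54 (95% confidence interval 0.27 to 0.82, limma adjusted p = 0.13), for *Tnf* 0.96 (95% confidence interval 0.30 to 1.62, limma adjusted p = 0.30) and for *Bcl3* 0.79 (95% confidence interval 0.21 to 1.38, limma adjusted p = 0.35). The interactions of *Nfkbie* and *Nfkbiz* were 0.42 and 0.39, and those of *Relb*, *Nfkb1* and *Rela* were 0.30, 0.13 and 0.13, with intervals that included 0. *Nfkbia* had an interaction of -0.07 (95% confidence interval -0.37 to 0.24, limma adjusted p = 0.94), since its PBS and LPS levels were both higher at ZT13. *Tnfaip3* passed the threshold without ZT1 LPS replicate 1 (0.83, limma adjusted p = 0.023) and *Nfkb2* without ZT13 LPS replicate 3 (0.62, limma adjusted p = 0.022). Over all genes tested these fits called 104 and 20, beside 30 in the main fit. *Tnfaip3* was called in 2 of 9 alternative settings and 1 of 16 leave-one-out fits, and *Nfkb2* in 1 of 9 and 1 of 16. The LPS, PBS and interaction comparisons share samples with one another, so their values are given side by side and not as separate evidence. The summed level of 10 endothelial markers moved in the same way as that of *Tnfaip3*, at 185 to 191 CPM in ZT1 PBS, 133 to 158 CPM in ZT13 PBS, 240 to 314 CPM in ZT1 LPS and 305 to 334 CPM in ZT13 LPS. Of these markers 3 were called lower at ZT13 in PBS-treated mice and 5 were called by limma with a positive interaction. Over all genes 0.52% and 0.159% were called in either direction. The part of the endothelium in the *Tnfaip3* values was not tested.

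**Figure D4:**
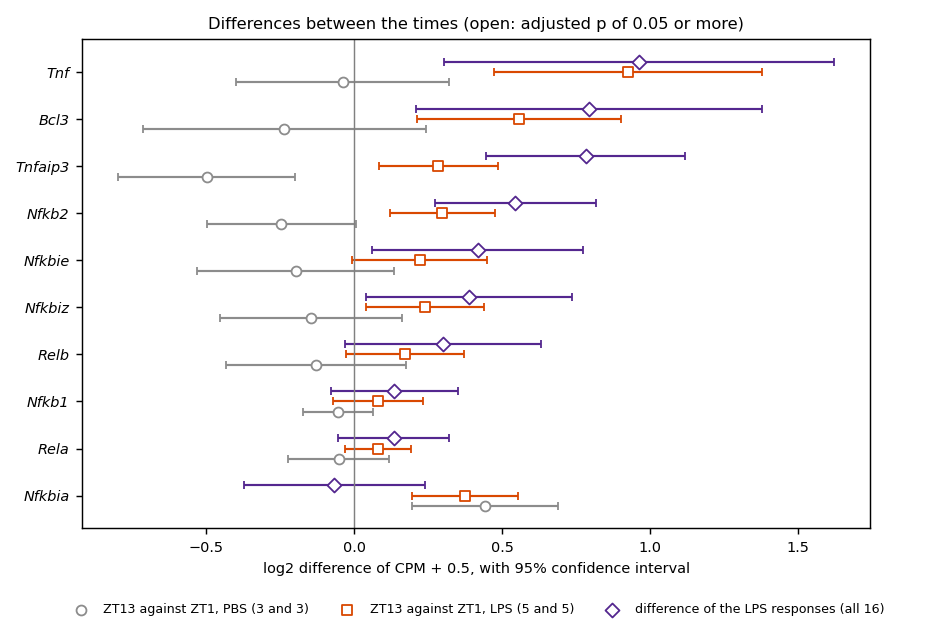
Log2 difference of CPM + 0.5 (horizontal axis) between ZT13 and ZT1 in PBS-treated mice (circles) and LPS-treated mice (squares), and the difference between the LPS responses at the 2 times (diamonds), with 95% confidence intervals from limma. All symbols are open, since no adjusted p was under 0.05, and *Nfkbia* is the gene for which the PBS value, 0.44, is positive.

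Other genes of the pathway were described in lists by role. Of 11 tested TNF family ligands and receptors, 6 were called higher after LPS at ZT1 and 9 at ZT13, and 0 were lower, beside 11.1% and 19.2% of all genes called higher. *Tnfrsf1a*, the main death-domain TNF receptor, rose at ZT1 from 7.64 ± 0.89 (SD, n = 3) to 18.03 ± 1.98 (SD, n = 5) and at ZT13 from 6.31 ± 0.58 to 23.2 ± 2.35 CPM, log2 fold changes of 1.19 and 1.80 (limma adjusted p = 2.3e-05 and 5.2e-09). *Tnfrsf1b*, the second TNF receptor, had log2 fold changes of 1.52 and 2.12 (limma adjusted p = 0.0021 and 9.2e-08), and *Ltbr*, the lymphotoxin β receptor that feeds the non-canonical branch, 0.55 and 1.16 (limma adjusted p = 0.0078 and 2.1e-06). Both receptors of TNF were thus higher in LPS-treated mice at each time.

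Of 22 receptor adaptors, ligases and upstream kinases, 10 were higher and 1 was lower at ZT1, and 14 were higher and 1 was lower at ZT13, where 11.1% and 19.2% of all genes were called higher and 5.15% and 9.4% lower. The 11 calls at ZT1 became 6, 7 and 6 without PBS replicate 1, 2 and 3, and 5 with no filter. The ubiquitin ligase gene *Birc3* rose by 1.23 and 1.99 on the log2 scale (limma adjusted p = 4.1e-04 and 1.3e-07), the adaptor gene *Traf1* by 0.68 and 1.26 (limma adjusted p = 0.021 and 1.2e-04), and *Myd88*, the adaptor of Toll-like receptors, by 0.72 and 1.21 (limma adjusted p = 0.0012 and 2.6e-06). The gene that fell at both times was *Traf3*, a brake on the non-canonical branch, at -0.26 and -0.19 (limma adjusted p = 0.039 and 0.0050). It was named after its values were seen. In the IKK group of 6 genes, 2 were called at ZT1 and 1 at ZT13, beside 16.2% and 28.6% of all genes called in either direction. The 2 were *Ikbke* and *Tbk1* (0.20, limma adjusted p = 0.040), and the count was 1 when any PBS mouse or any of LPS replicates 1 to 4 was left out, and 0 with no filter. *Ikbke*, an inducible IKK-related kinase, rose at ZT1 from 2.34 ± 0.35 (SD, n = 3) to 8.05 ± 4.17 (SD, n = 5) and at ZT13 from 1.94 ± 0.34 to 16.7 ± 3.24 CPM, log2 fold changes of 1.47 and 2.80 (limma adjusted p = 0.0079 and 9.6e-09).

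Of the 6 other subunit and inhibitor genes, 0 were called at ZT1, by limma, with 1 at an unadjusted p under 0.05 (30.3% of all genes), and 2 were higher at ZT13. These were *Nkiras2*, which encodes a small GTPase that slows IκB degradation (0.35, limma adjusted p = 0.0032), and *Nfkbid*, which encodes a nuclear IκB (0.40, limma adjusted p = 0.026). With quantile scaling neither *Nkiras2* nor *Nfkbid* was called (0.17 each, limma adjusted p = 0.10 and 0.32). *Nfkbid* also lost the call with the replicate block (limma adjusted p = 0.097) and without PBS replicate 1 (0.14). Of 17 other feedback inhibitors, 11 were higher at ZT1, 12 at ZT13 and 0 lower at either, beside 11.1% and 19.2% of all genes called higher. The ZT1 count was 7 without PBS replicate 1 and with no filter. *Socs3*, a suppressor of cytokine signaling, rose by 1.53 and 2.27 (limma adjusted p = 8.9e-05 and 3.8e-08), *Irak3*, a decoy kinase of the Toll-like receptor pathway, by 1.51 and 2.63 (limma adjusted p = 0.0021 and 2.2e-07), and *Nlrc5* by 2.35 and 2.93 (limma adjusted p = 7.7e-07 and 6.4e-07). Of 17 NF-κB target genes, 14 were higher at ZT1 and 15 at ZT13, against the same shares of all genes. The adhesion molecule gene *Icam1* rose by 2.95 and 3.65 (limma adjusted p = 2.6e-07 and 9.8e-11), the chemokine gene *Ccl5* by 5.77 and 5.59 (limma adjusted p = 7.3e-08 and 2.0e-08), and *Lcn2*, which encodes lipocalin 2, by 8.19 and 9.10. Some genes of the pathway lists, among them *Ccl5*, *Lcn2* and *Irak3*, were below 1 CPM in every PBS-treated mouse. Such genes passed the filter through LPS samples alone, so their calls, and the list counts, depend on the groups in which they were high. In each of these 6 lists limma called 0 genes for ZT13 against ZT1 in LPS-treated mice, for ZT13 against ZT1 in PBS-treated mice and for the interaction. Without ZT1 LPS replicate 1 the LPS comparison called 2 ligands and receptors, 1 adaptor, 1 IKK gene, 4 feedback inhibitors and 4 targets, and the interaction called 2 ligands and receptors, 1 IKK gene and 2 targets. Those 2 fits called 345 and 104 of all genes tested, beside 4 and 30 with every mouse kept. An unadjusted p under 0.05 in the LPS comparison was met by 6 of the 11 ligands and receptors, 6 of the 22 adaptors, 1 of the 6 IKK genes, 0 of the 6 subunit and inhibitor genes, 6 of the 17 feedback inhibitors and 6 of the 17 targets, beside 10.6% of all genes.

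**Figure D5:**
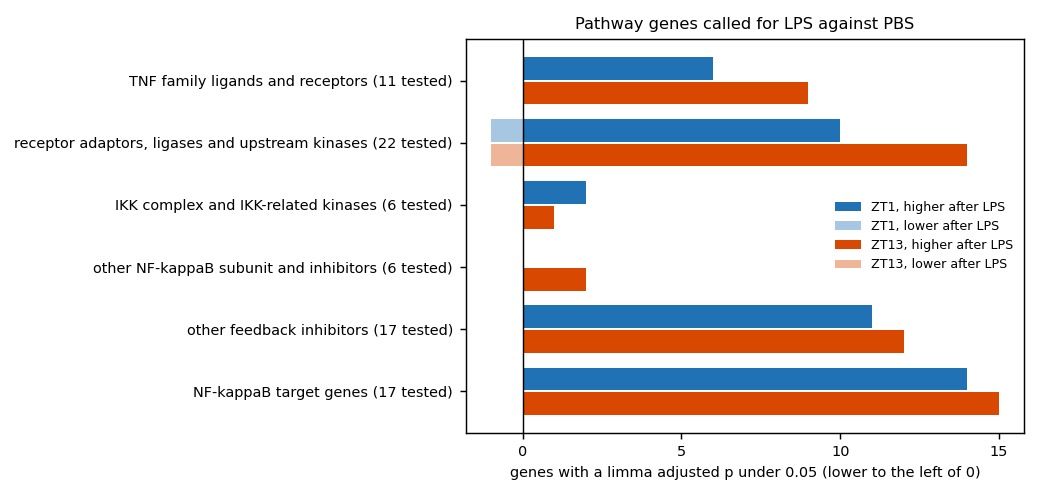
Number of genes called by limma for LPS against PBS (horizontal axis, higher to the right of 0 and lower to the left) at ZT1 and ZT13 in each of 6 lists of pathway genes, with the number tested in parentheses. The adaptor list has 1 lower gene at each time, and the target list has 14 and 15 higher genes.

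Genes outside the list were ranked by how closely their log2 values over the 16 samples, centered on their own mean, followed each of the 10, with the root mean square (RMS) difference as the measure. *Tnf* was followed most closely by *Cd300ld*, which encodes a myeloid receptor (RMS 0.19), *Mefv*, which encodes pyrin (0.21), and the nucleoside transporter gene *Slc28a2* (0.22). All 3 were low genes with a higher mean CPM in ZT13 LPS than in ZT1 LPS, and *Cd300ld* had a mean of 0.48 CPM in ZT1 LPS and 1.27 CPM in ZT13 LPS. *Nfkbia* was followed by *Mgp*, *Glp2r* and *Wipf3*, each at RMS 0.17. *Nfkb2* was followed by *Nos3*, which encodes endothelial nitric oxide synthase (RMS 0.15), *Tnfaip3* by *Arap3* (0.13), *Nfkbie* by *Stat6* (0.11), *Relb* by *Rrbp1* (0.10), *Nfkbiz* by *Prkd2* (0.15), *Nfkb1* by *Plxnb2* (0.066), *Rela* by *Fryl* (0.056) and *Bcl3* by *Ifitm2* (0.27). Within the list, *Nfkbie* and *Nfkbiz* were nearest to each other (RMS 0.18), as were *Nfkb1* and *Relb* (0.15), and *Tnfaip3* was the nearest member to both *Tnf* (0.37) and *Nfkb2* (0.24). An RMS difference grows with the spread of a gene, so it cannot be compared between members.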

How the data were processed

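Cortex total RNA from 16 mice was depleted of ribosomal RNA and sequenced. The authors deposited a table of CPM, in which every column sums to 1000000 over 55487 gene identifiers, after 287 repeated lines with identical values were set aside. The submitters' processing notes name bcl2fastq, DRAGEN 4.0.3-8 and GRCm38, while the counting tool, annotation release and strand setting are not given in the sources used here. Depth, 20251840 to 29112758 reads on genes, was read from the step of the lowest values. Of the values under 20 reads, 80.7% to 82.4% lay within 0.01 of a whole read, too few for a test of counts.

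Groups came from the titles. Each pair of groups was fitted alone, and the time of day (TOD) × treatment interaction on all 16 samples, with limma 3.58.1 in R 4.3.3 and an intensity trend, on log2(CPM + 0.5) for genes at 1 CPM or more in at least 3 samples. P-values were adjusted by Benjamini-Hochberg over 18859 genes. Two-sided exact permutation tests compared single genes. The code was tested on simulated data with known changes. SD is between mice and SE is from limma. The labels name separate mice, and no sequencing batch is given.

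The 10 genes, the pathway lists, the markers and the promoter motifs were chosen with earlier results of these data known. Pathway genes named are the 3 with the largest log2 fold change among those called at ZT13 in each list, and likeness is given for the nearest 3 genes to *Tnf* and *Nfkbia* and the nearest 1 to the others. Alternatives were pseudocounts of 0.1 and 1, no filter, a filter at 5 CPM, median-of-ratios and quantile scaling, no trend, sample quality weights, a joint fit of all samples, a replicate block, the treatment field as group, and leaving out each mouse. Coordinates and exon lengths are from GENCODE M21 for GRCm38, which held 55227 of the identifiers, and promoter sequences are from RefSeq for GRCm38.p6. Tables and figures were made in Python 3.11.15 with numpy 2.4.6, pandas 2.3.3 and, for plots, matplotlib 3.10.9.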

Additional observations from a re-analysis of the deposited data

Results flagged for a closer look

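In 3 of 50 groups of 5 LPS-treated mice, 1 mouse lay apart from the other 4 by Dixon's ratio (critical value 0.71), and chance gives about 1 in 20. *Nfkb2* was at 10.7 CPM in ZT13 LPS replicate 3, the lowest of its group. *Bcl3* was at 1.95 CPM in ZT1 LPS replicate 5, and *Nkiras2* was at 9.65 CPM in the same mouse, each the lowest of its group.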

How the results depend on the processing

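At ZT13 the count of the 10 genes called higher after LPS was 10 under every title-based alternative and with each mouse left out, except that 8 of 8 were called with the 5 CPM filter, which left the other 2 untested. At ZT1 the count was 6 to 9 over the alternatives and 7 to 9 with 1 mouse left out, beside 8. For ZT13 against ZT1 in LPS-treated mice it was 1 in a single fit of all samples (*Tnf*), 2 with sample quality weights and 0 to 1 with 1 mouse left out. For the interaction it was 1 with median-of-ratios factors (*Tnfaip3*), 2 with sample quality weights (*Tnfaip3* and *Nfkb2*) and 0 to 1 with 1 mouse left out. With the treatment field as group it was 0 at ZT1, 0 at ZT13, 0 between LPS groups, 1 between PBS groups and 0 for the interaction. Over all genes the counts called ran from 1605 to 4097 at ZT1, from 0 to 345 between LPS groups, from 3 to 199 between PBS groups and from 7 to 124 for the interaction, and those between LPS groups reached 345 without ZT1 LPS replicate 1.

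Between LPS groups the pathway lists, with 0 calls otherwise, gave 1 ligand or receptor, 1 adaptor, 1 IKK gene, 5 feedback inhibitors and 4 targets with quality weights, and 1 IKK gene, 2 feedback inhibitors and 2 targets in a single fit. Over all genes tested, 225 were called with quality weights and 122 in the single fit. For the interaction, quality weights gave 2 ligands or receptors and 1 target, with 124 called over all genes, and leaving out ZT13 LPS replicate 5 gave 1 target. At ZT1 the ligands and receptors went from 6 to 3 with no filter. At ZT13 the other subunit and inhibitor genes went from 2 to 1 without PBS replicate 1, with quantile scaling, with the replicate block and with the 5 CPM filter.

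Same-numbered mice had residual correlations of -0.20 to 0.33, so replicate numbers were not taken as pairs. With the replicate block 6 genes were called at ZT1, 10 at ZT13 and 0 in the other comparisons, and *Relb* and *Nfkbie* were those lost at ZT1 (limma adjusted p = 0.072 and 0.14). *Tnf* at ZT1 gained the call with a pseudocount of 0.1 (limma adjusted p = 0.024), and *Nfkb1* lost it with no filter (0.077). Quantile scaling moved the median of all genes by -0.11 at ZT13.

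The log2 differences that reached or crossed 0 were small. Under quantile scaling *Nfkbid* at ZT1 was -0.062 and *Nlrc5* between LPS groups -0.0043, and with quality weights the *Nfkbia* interaction was 0.00047. With 1 mouse left out, *Nlrc5* between LPS groups ran from -0.094 to 0.23, the *Nfkbia* interaction from -0.18 to 0.00086 and the *Ccl5* interaction from -0.38 to 0.072. Between PBS groups *Rela* ran from -0.11 to 0.018, *Nfkbiz* from -0.23 to 0.016, *Irak3* from -0.15 to 0.15, *Socs3* from -0.28 to 0.066, *Lcn2* from -0.094 to 0.088, *Ccl5* from -0.22 to 0.066 and *Tnf* from -0.058 to 0, the last without the 1 PBS-treated mouse that had a read. The cause of these changes was not tested. Depth limits *Tnf*, which rests on 3 to 36 reads in LPS-treated mice.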

Other observations

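Some genes of the pathway lists were too low to test or fell outside the rule for named genes, and they were chosen after their values were seen. *Nos2*, which encodes inducible nitric oxide synthase, differed from PBS by 0.40 in log2 at ZT1 (limma adjusted p = 0.36) and by 2.37 at ZT13 (limma adjusted p = 4.4e-05), with an interaction of 1.96 (limma adjusted p = 0.10). The ligand gene *Tnfsf14* was not detected in PBS-treated mice, which here means 3 reads or fewer in each. By the mean of the LPS-treated mice *Tnfsf14* was at least 1.41-fold higher after LPS at ZT1 and at least 4.38-fold higher at ZT13, against 3 reads in the shallowest PBS library. The neutrophil chemokine gene *Cxcl2* was at least 1.51-fold and 2.33-fold higher against the same floor. *Il6* was not detected in any group, and *Cd40lg* was listed at 0 in all 16 samples. *Ltb*, which encodes lymphotoxin β, had log2 fold changes of 0.72 at ZT1 (limma adjusted p = 0.054) and 0.93 at ZT13 (limma adjusted p = 0.0037). *Nos2* and *Ltb* were below 1 CPM in every PBS-treated mouse, so both passed the filter through LPS samples alone.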
